A study of Mus musculus with 26 samples.

Results

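The genes described here are the RIP kinases *Ripk1* and *Ripk3* and 8 of their partners and caspase relatives, *Mlkl*, *Zbp1*, *Fadd*, *Cflar*, *Casp8*, *Casp1*, *Casp4* and *Casp12*, which are 10 of the 23337 genes in the count tables. They were chosen by symbol, to place the high *Ripk3* mRNA of the mutant epididymis in its pathway, so the *Ripk3* values of the epididymis chose the set and are given below as a description with no test. The 26 libraries are 5 ArKI and 5 WT of the initial segment (IS) of the epididymis, 5 and 5 of its caput, and 3 and 3 of the testis. By the study's methods, both regions were taken from the same males, 5 of each genotype, so IS and caput samples share animals. All males were 3 months old and of a C57Bl/6N; 129 hybrid strain. ArKI males carry a germline knock-in mutation, present in every cell of the animal, and WT males do not. Strains of 129 origin are known to carry an inactivating variant of *Casp4*, which counts per gene do not show.

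Necroptosis is a lytic form of regulated cell death. After engagement of a TNF-family receptor, RIPK1 joins FADD, caspase-8 and cFLIP, the product of *Cflar*, in a complex that can drive apoptosis. When caspase-8 is inactive, RIPK1 or the nucleic acid sensor ZBP1 engages RIPK3 through a shared motif named RHIM, and RIPK3 phosphorylates MLKL, which then permeabilises the plasma membrane. Caspase-1 and caspase-4 belong to a neighbouring pathway, in which inflammasomes or bacterial lipopolysaccharide lead to gasdermin cleavage, and caspase-12 is a family member linked to the endoplasmic reticulum. The epididymis matures and stores sperm, and its proximal segments carry a dense network of mononuclear phagocytes along the epithelium. Only mRNA was measured, and neither the proteins nor their phosphorylation.

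Levels are given as CPM, the count divided by the library size, after scaling by edgeR's trimmed mean of M-values (TMM), jointly over the 20 epididymal samples and separately over the 6 testis samples. Total counts per sample were 5829074 to 9770625 in the IS, 4125768 to 11913469 in the caput and 14077013 to 21376604 in the testis, and a count of 3 corresponds to 0.313 to 0.512, 0.247 to 0.691 and 0.141 to 0.215 CPM, a limit that covers counting error only. Epididymis and testis were sequenced in separate batches, so tissue and batch cannot be told apart. The 5 IS markers summed to 27744 to 30754 CPM in the WT IS, 22744 to 26460 CPM in the ArKI IS and 569 to 3093 CPM in the caput samples, and 6 sperm and spermatid markers summed to 13724 to 17553 CPM in the testis. Of 4 caput markers, *Lcn5* separated the segments (caput samples 10118 to 17407 CPM, IS samples 39.95 to 113 CPM). The sum of the 4 did not in ArKI males (caput 58648 to 91953 CPM, IS 56563 to 83918 CPM), and *Crisp1* had a higher mean in the WT IS (2088 CPM) than in the WT caput (382 CPM).

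The members lie on 7 chromosomes of the GRCm38 assembly. *Ripk3* is on chromosome 14 (chr14:55784995-55788857, minus strand), 899 bases from *Adcy4* and 35937 bases from *Nfatc4*. *Cflar* (chr1:58711311-58758884) and *Casp8* (chr1:58795233-58847503) are neighbours on chromosome 1, and *Casp1* (chr9:5298517-5307281), *Casp4* (chr9:5308849-5336791) and *Casp12* (chr9:5345442-5373034) follow each other on chromosome 9. *Ripk1* is at chr13:34002225-34035170, *Mlkl* at chr8:111311255-111338479, *Zbp1* at chr2:173206612-173218959 and *Fadd* at chr7:144578323-144582441. Whether the reads were counted by strand is not given in the sources used here. Reads of *Ripk3* therefore cannot be told from those of the long noncoding RNA gene *Gm32092*, which covers all 3863 bases of *Ripk3* in RefSeq, nor reads of *Fadd* from its antisense gene *Faddos*; neither is a row of the count tables. *Ripk1* shares 570 bases with *Serpinb6a*.

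RefSeq promoter sequences of GRCm38.p6 were at hand for 9 of the 10 genes, in 11 windows. The 250 bases upstream of the start are shown for *Ripk3*, which differed most between the genotypes among the members, for *Fadd*, which was called in the caput, and for *Casp4*, one of the genes that differed between the segments. They are written 5′ to 3′ on the gene's strand, and capitals mark matches to the motifs named next.
*Ripk3* (chr14:55788858-55789107, minus strand): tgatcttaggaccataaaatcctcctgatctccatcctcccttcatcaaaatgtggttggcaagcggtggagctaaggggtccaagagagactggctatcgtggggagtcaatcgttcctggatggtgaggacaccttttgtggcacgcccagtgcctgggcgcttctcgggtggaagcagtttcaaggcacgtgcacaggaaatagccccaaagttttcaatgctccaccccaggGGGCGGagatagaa
*Fadd* (chr7:144582442-144582691, minus strand): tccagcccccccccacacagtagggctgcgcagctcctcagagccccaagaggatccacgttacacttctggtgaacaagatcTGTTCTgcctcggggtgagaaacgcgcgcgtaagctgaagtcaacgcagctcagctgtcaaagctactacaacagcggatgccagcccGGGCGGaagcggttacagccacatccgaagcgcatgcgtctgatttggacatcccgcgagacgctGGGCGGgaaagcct
*Casp4* (chr9:5308599-5308848, plus strand): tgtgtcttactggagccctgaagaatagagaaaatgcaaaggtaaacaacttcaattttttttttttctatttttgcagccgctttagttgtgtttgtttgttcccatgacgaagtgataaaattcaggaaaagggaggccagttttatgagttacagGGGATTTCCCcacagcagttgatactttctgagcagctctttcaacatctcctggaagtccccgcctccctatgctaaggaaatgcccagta
The 250 bases were searched on both strands for 5 motifs. The GC box GGGCGG matched the windows of *Ripk3*, *Fadd* and *Ripk1* and 32.7% of all 32851 promoter windows of that length. In *Ripk3* and in *Fadd* a GC box lay 14 to 9 bases before the start. The androgen response half-site AGAACA matched *Fadd* and *Casp1* and 16.1% of all windows, and the full palindromic element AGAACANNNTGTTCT, which contains 2 half-sites, matched no member and 0.00913% of all windows. The NF-kB site GGGANNNNCC matched *Casp4* alone among the members and 17.6% of all windows, and the core of the interferon-stimulated element GAAANNGAAA matched no member and 2.98% of all windows. A match describes the letters of this window and no measured binding.

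*Ripk3* was close to undetected in the WT IS and well expressed in the ArKI IS. The 5 WT IS samples had 0.844, 0.571, 1.74, 0.707 and 0.730 CPM, which were 5 to 14 counts each, and the 5 ArKI samples had 20.05, 21.6, 16.1, 19.1 and 16.6 CPM. All ArKI samples lay above all WT samples, as in 9.6% of all genes tested, at a fitted 20.2-fold (log2 fold change 4.34, SE 0.20). In the caput the WT samples had 9.95, 4.91, 5.37, 3.78 and 6.43 CPM and the ArKI samples 19.5, 29.0, 23.0, 31.0 and 20.7 CPM. The groups were again apart, as in 9.78% of all genes, at 3.98-fold (log2 fold change 1.99, SE 0.23). Ordered by mean, the level went from the WT IS (0.918 ± 0.468 CPM, SD, n = 5) through the WT testis, ArKI testis and WT caput (6.09 ± 2.36) to the ArKI IS (18.7 ± 2.31) and the ArKI caput (24.6 ± 5.09). Of neighbours in that order, the ArKI testis and the WT caput overlapped, and so did the ArKI IS and the ArKI caput. The ArKI IS thus had more *Ripk3* mRNA than either WT segment, and the levels of the segments, which were far apart in WT males, overlapped in ArKI males. The testis was sequenced and scaled separately, so for its place in the order tissue and batch cannot be told apart. In these bulk samples, a change in the share of cells of a type and a change in the RNA of each cell cannot be told apart.

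**Figure D1:**
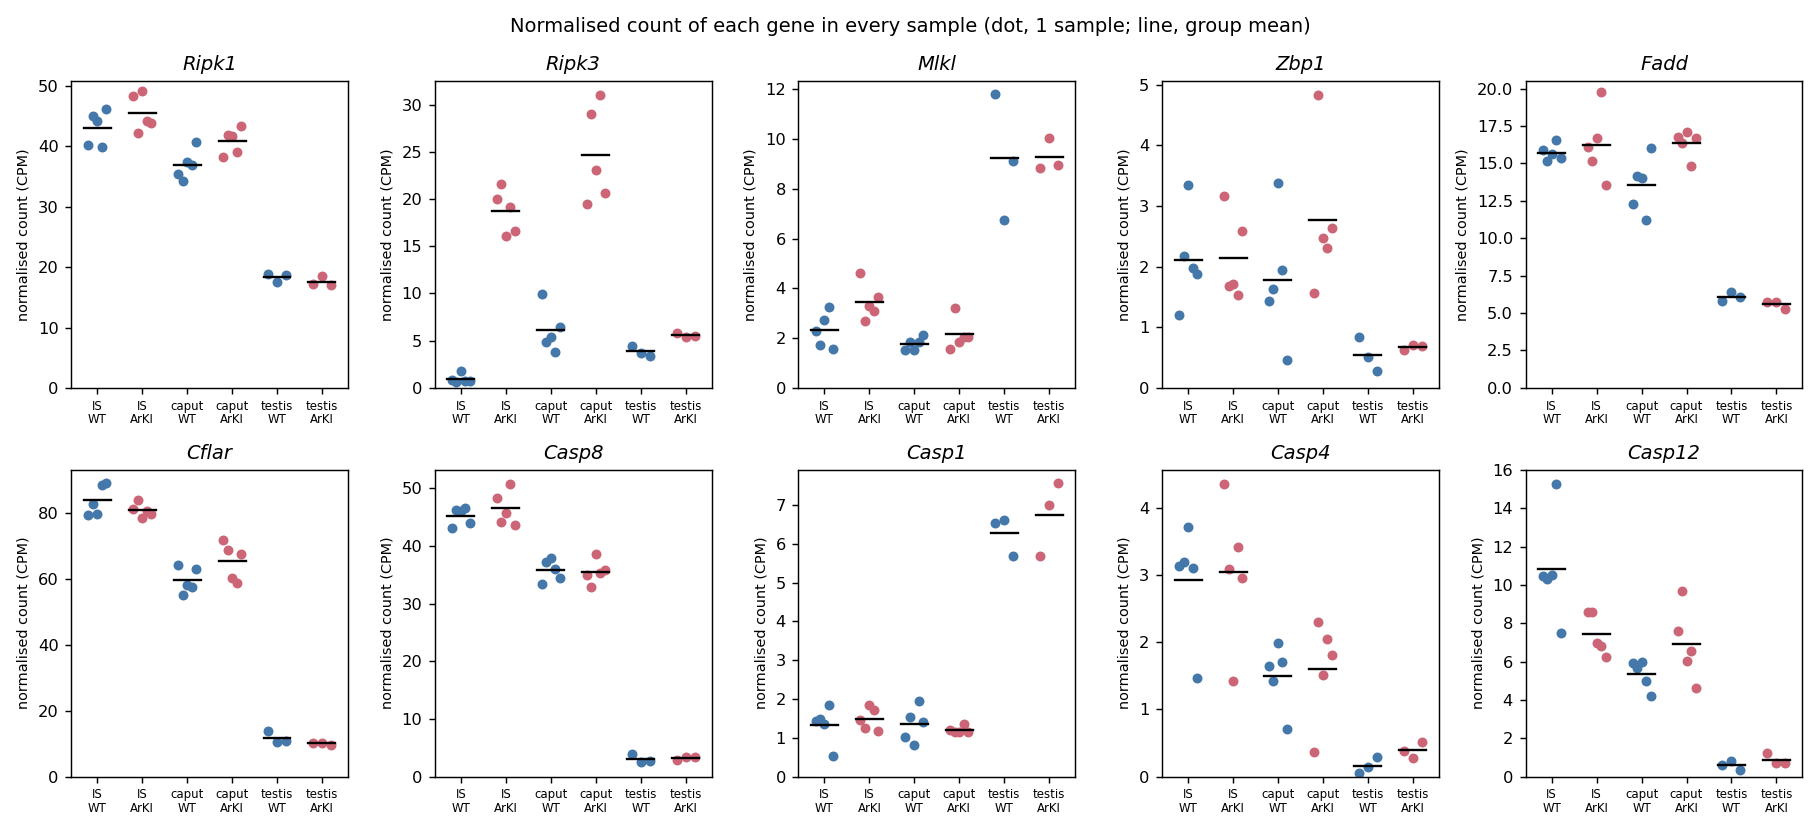
Normalised count (CPM) of each of the 10 genes on a linear axis from 0, by group. Each dot is 1 sample and each line a group mean, with WT in blue and ArKI in red. *Ripk3* is the gene whose ArKI dots lie above all WT dots in the IS (16.1 to 21.6 against 0.571 to 1.74 CPM), the caput and the testis.

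Among the other 9 genes, 1 passed the test in the IS and 1 in the caput, against 29.6% of 13434 genes tested in the IS and 27.7% of 13726 in the caput. Genes were tested with the quasi-likelihood method of edgeR, p-values were adjusted over all genes tested, and a gene was called at an adjusted p below 0.05. At the study's thresholds, an FDR below 0.01 and a fold above 2, none of the 9 passed in either segment, against 4.04% (IS) and 4.98% (caput) of those tested. The IS call was a fall of *Casp12* and the caput call a rise of *Fadd*, both small beside the *Ripk3* difference.

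*Ripk1*, the kinase that recruits RIPK3 downstream of TNF receptors, was abundant in both segments and nearly level in the IS. It had 40.3, 45.0, 44.3, 39.9 and 46.2 CPM in the WT IS and 48.3, 42.3, 49.2, 44.2 and 43.9 CPM in the ArKI IS. The ranges overlapped, and the log2 fold change of 0.078 (SE 0.064, adjusted p = 0.395) had a 95% interval of -0.048 to 0.20. In the caput the WT samples spanned 34.3 to 40.7 CPM and the ArKI samples 38.3 to 43.3 CPM (log2 fold change 0.15, SE 0.061, adjusted p = 0.0844). The 95% interval there was 0.028 to 0.27, and the gene passed the threshold in 2 of 17 alternative settings.

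*Mlkl*, the substrate of RIPK3 and the executor of membrane rupture, was low in both segments. Its levels were 2.29, 1.71, 2.73, 3.25 and 1.56 CPM in the WT IS and 4.62, 2.67, 3.28, 3.07 and 3.66 CPM in the ArKI IS. Above 3 CPM were 4 of the 5 ArKI samples and 1 WT sample, and the groups overlapped. The log2 fold change was 0.61 (SE 0.24, adjusted p = 0.0582, 95% interval 0.15 to 1.08), which missed the threshold. It passed with scaling by library size only (adjusted p = 0.0497), with limma voom (0.0471), with all epididymal samples in one fit (0.0433), without ArKI replicate 2 (0.0385) and without WT replicate 4 (0.0291). In the caput *Mlkl* had 1.52 to 2.10 CPM in WT and 1.57 to 3.22 CPM in ArKI males (log2 fold change 0.22, SE 0.23, adjusted p = 0.525).

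*Zbp1*, the sensor of Z-form nucleic acids that binds RIPK3, had 1.21 to 3.35 CPM in the WT IS and 1.53 to 3.17 CPM in the ArKI IS (log2 fold change 0.043, SE 0.28, adjusted p = 0.933). In the caput it spanned 0.468 to 3.39 CPM in WT and 1.57 to 4.84 CPM in ArKI males (0.56, SE 0.38, adjusted p = 0.313). These were 4 to 32 counts a sample, and the 95% intervals were wide, -0.51 to 0.60 in the IS and -0.18 to 1.29 in the caput.

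*Fadd*, the adaptor between death receptors and caspase-8, rose slightly in the caput. The WT caput samples had 12.3, 14.2, 14.02, 11.2 and 16.0 CPM and the ArKI samples 16.7, 16.4, 17.1, 14.8 and 16.7 CPM. WT replicate 5, at 16.0 CPM, lay within the ArKI range. The log2 fold change was 0.27 (SE 0.098, adjusted p = 0.0468), a 1.21-fold rise. The call was lost with DESeq2 (adjusted p = 0.0719), without WT replicate 1 (0.103), 2 (0.0634), 3 (0.0651) or 4 (0.120), and without ArKI replicate 1 (0.0856), 2 (0.0507), 3 (0.0912) or 5 (0.0845). In the IS, the groups spanned 15.2 to 16.5 CPM in WT and 13.6 to 19.8 CPM in ArKI males (0.042, SE 0.10, adjusted p = 0.799).

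*Casp8* and *Cflar* encode the protease that cleaves RIPK1 and RIPK3 and its catalytically inactive partner. *Casp8* had 43.2 to 46.6 CPM in the WT IS and 43.7 to 50.8 CPM in the ArKI IS, with a log2 fold change of 0.041 (SE 0.058, adjusted p = 0.647, 95% interval -0.073 to 0.16). In the caput it had 33.4 to 37.8 and 32.9 to 38.5 CPM (-0.0016, SE 0.060, adjusted p = 0.991, interval -0.12 to 0.12). *Cflar* had 79.3 to 89.1 CPM in the WT IS and 78.3 to 83.8 CPM in the ArKI IS (-0.054, SE 0.048, adjusted p = 0.439). Its caput values were 55.2 to 64.1 and 58.6 to 71.8 CPM (0.13, SE 0.065, adjusted p = 0.144). Both genes were measured precisely, and a log2 difference beyond 0.26 in either direction was outside all 4 of these intervals.

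*Casp12* fell in the ArKI IS. The WT samples had 10.5, 10.3, 10.5, 15.3 and 7.51 CPM and the ArKI samples 8.57, 8.57, 6.99, 6.82 and 6.26 CPM. WT replicate 5 lay within the ArKI range and the other 4 WT samples above it. The log2 fold change was -0.53 (SE 0.17, adjusted p = 0.0221), and the adjusted p rose to 0.0503 without ArKI replicate 4, 0.0615 without ArKI replicate 5, 0.0743 without WT replicate 4 and 0.0506 with limma voom. In the caput the direction was the other: 5.95, 5.67, 5.96, 4.996 and 4.21 CPM in WT and 7.59, 9.67, 6.02, 6.57 and 4.61 CPM in ArKI males, with overlapping groups (0.31, SE 0.18, adjusted p = 0.226).

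Its neighbours *Casp1*, which processes interleukin-1 precursors, and *Casp4*, a sensor of intracellular lipopolysaccharide, had few counts in the epididymis, 5 to 16 and 3 to 33 a sample. *Casp1* had 0.521 to 1.84 CPM in the WT IS and 1.18 to 1.85 CPM in the ArKI IS, and 0.818 to 1.95 and 1.15 to 1.36 CPM in the caput. Its log2 fold changes were 0.18 (SE 0.31, adjusted p = 0.717) and -0.14 (SE 0.27, adjusted p = 0.765). *Casp4* had 1.46 to 3.72 CPM in the WT IS and 1.43 to 4.35 CPM in the ArKI IS (0.074, SE 0.27, adjusted p = 0.874), and 0.702 to 1.99 against 0.361 to 2.30 CPM in the caput (0.088, SE 0.35, adjusted p = 0.890). The 95% intervals of *Casp1* were -0.43 to 0.79 in the IS and -0.67 to 0.40 in the caput, and those of *Casp4* -0.46 to 0.61 and -0.60 to 0.78, so differences within these intervals were not excluded.

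**Figure D2:**
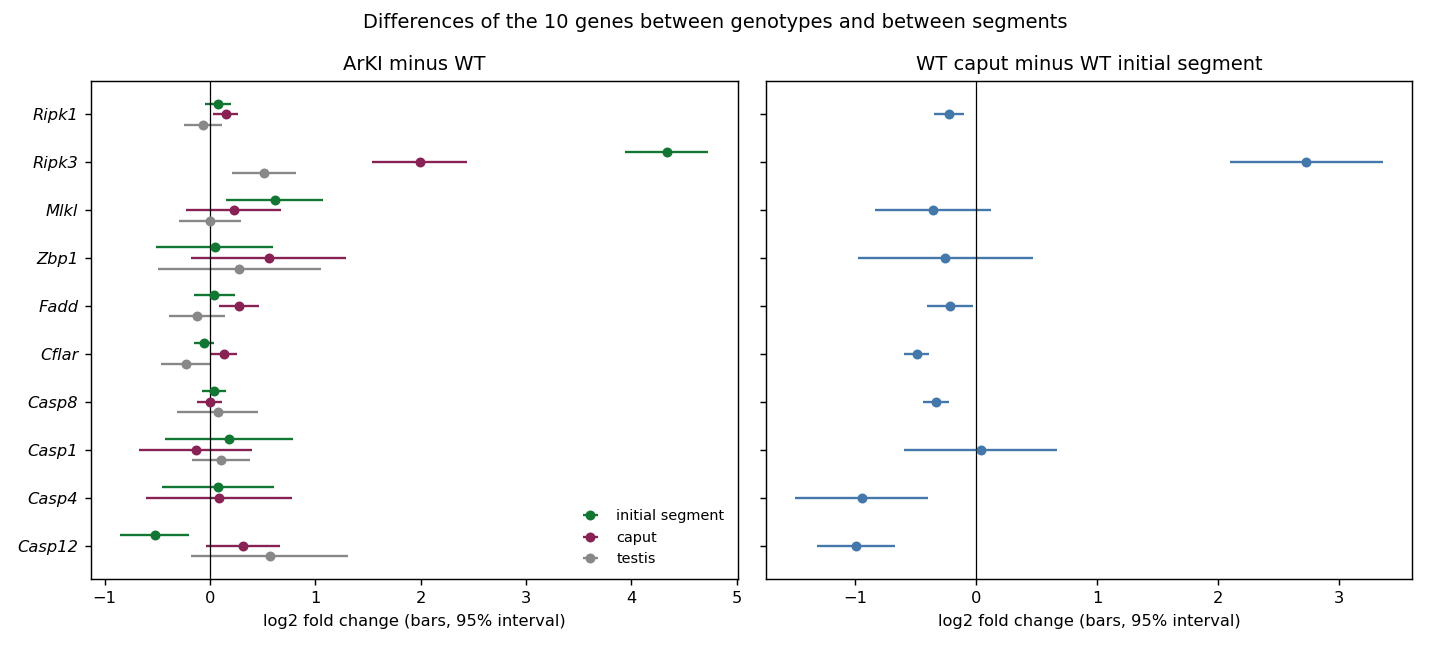
Log2 fold change of the 10 genes with bars of the 95% interval, ArKI minus WT in the IS, caput and testis on the left, and WT caput minus WT IS on the right. *Ripk3* stands at 4.34 in the IS, 1.99 in the caput and 0.52 in the testis, while the other genes on the left lie between -0.53 and 0.61; on the right *Casp12* is lowest at -0.99; *Casp4* was not fitted in the testis.

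The genotype effect was compared between the segments by the interaction of segment and genotype over the 20 epididymal samples. Of the other 9 genes, 1 differed, against 15.1% of 14329 genes tested, and 7.38% with the higher effect in the caput. It was *Casp12*, whose caput effect exceeded its IS effect by 0.82 on the log2 scale (SE 0.25, adjusted p = 0.0277). That p was 0.0567 without IS ArKI replicate 5, 0.0611 without IS WT replicate 4, 0.0567 without caput WT replicate 5, 0.0550 without caput ArKI replicate 1 and 0.0756 with limma voom. At an adjusted p below 0.01 and a fold above 2 none of the 9 passed, against 3.1%. For *Mlkl* the caput effect was lower than the IS effect (-0.39, SE 0.33, adjusted p = 0.493), and for *Fadd* it was 0.23 higher (SE 0.14, adjusted p = 0.293). The fitted *Ripk3* effect was smaller in the caput (-2.35), given with no test. The test took the 20 samples as independent although the regions share males, and no source used here says that a sample number marks a male. With the number taken as the male, *Casp12* differed by 0.84 (adjusted p = 0.00728) and no other of the 9 genes was called.

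In the testis no member passed the test, among 9 that were fitted, against 1.96% of 15838 genes, nor at an FDR below 0.2 with a fold above 2, against 0.833%. *Ripk3* had 4.44, 3.73 and 3.42 CPM in WT and 5.82, 5.36 and 5.54 CPM in ArKI males. The testis did not choose the set, and here the gene was tested. The groups did not overlap, as in 17.8% of all genes tested, and the log2 fold change was 0.52 (SE 0.15, adjusted p = 0.103). The genotypes were apart in 3 members, *Ripk3* above, as in 9.36% of genes, and *Fadd* (5.25 to 5.76 against 5.82 to 6.39 CPM) and *Cflar* (9.70 to 10.2 against 10.6 to 13.8 CPM) below. *Fadd* had a log2 fold change of -0.12 (SE 0.14, adjusted p = 0.763) and *Cflar* of -0.23 (SE 0.12, adjusted p = 0.423).

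The partners differed in level between testis and epididymis. *Mlkl* had 11.8, 6.75 and 9.12 CPM in the WT testis and 8.83, 10.1 and 8.95 CPM in the ArKI testis (log2 fold change -0.00023, SE 0.15, adjusted p = 0.999), above all 20 epididymal samples. *Casp1* was also higher there than in the epididymis, at 5.70 to 6.60 CPM in WT and 5.70 to 7.56 CPM in ArKI males, and *Casp8* was lower, at 2.58 to 3.90 and 2.82 to 3.46 CPM. These levels were scaled separately from those of the epididymis and were not tested across tissues. *Casp4* was left out of the testis fit by the filter on low counts, with 1, 2 and 4 counts in WT and 6, 6 and 9 in ArKI males. Its mean log2(CPM + 0.5) differed by 0.43, with p = 0.2 in a two-sided exact permutation test, whose smallest possible p with 3 against 3 samples is 0.1.

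In WT males, the caput was compared with the IS to give the level of each gene without the mutation. *Ripk3* had 3.78 to 9.95 CPM in the WT caput and 0.571 to 1.74 CPM in the WT IS, a fitted log2 difference of 2.73 (SE 0.32) that is given with no test. Its caput samples all lay above its IS samples, as in 28.5% of genes. Of the other 9 members 5 differed, against 71.2% of 13787 genes tested, 0 higher in the caput (35.4% of genes) and 5 lower (35.8%). With an adjusted p below 0.01 and a fold above 2 none of the 9 passed, against 20.8%. Here too the regions share males and the samples were tested as independent; with the number taken as the male, 5 of the 9 were called again, all lower in the caput. *Casp12* (-0.99, SE 0.17, adjusted p = 2.18e-05), *Casp4* (-0.95, SE 0.28, adjusted p = 0.00499), *Cflar* (-0.49, SE 0.054, adjusted p = 8.03e-08), *Casp8* (-0.33, SE 0.055, adjusted p = 1.96e-05) and *Ripk1* (-0.23, SE 0.063, adjusted p = 0.00311) were lower in the caput. *Fadd* (-0.21, adjusted p = 0.0562), *Mlkl* (-0.36, adjusted p = 0.194), *Zbp1* (-0.25, adjusted p = 0.551) and *Casp1* (0.038, adjusted p = 0.921) did not pass.

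Levels of different genes were set side by side only per length, as CPM per kilobase of the union of a gene's exons. In the WT IS, *Casp8* led with 15.6 ± 0.533 (SD, n = 5), followed by *Cflar* with 6.62 ± 0.371 and *Ripk1* with 5.17 ± 0.346, and *Ripk3* was last of the 10 with 0.400 ± 0.204 CPM per kb. In the ArKI IS, *Ripk3* was second of the 10 with 8.16 ± 1.01 CPM per kb, between *Casp8* and *Cflar*. In the caput it moved from the fifth place in WT males (2.66 ± 1.03) to the second in ArKI males (10.8 ± 2.22). The order of the other 9 members in the IS was the same in both genotypes, from *Casp8* to *Zbp1*. The ratio of *Ripk3* to *Ripk1* per length had a median of 0.0645 in the WT IS, 1.51 in the ArKI IS, 0.523 in the WT caput and 2.01 in the ArKI caput. The ratio of *Ripk3* to *Mlkl* went from 0.370 to 4.94 in the IS and from 3.07 to 12.4 in the caput, and in the testis it was 0.377 in WT and 0.622 in ArKI males. *Mlkl* thus exceeded *Ripk3* per length in every testis sample and every WT IS sample, and in no other group. Exon unions count every annotated isoform, so the levels of a gene with long rare exons are understated.

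**Figure D3:**
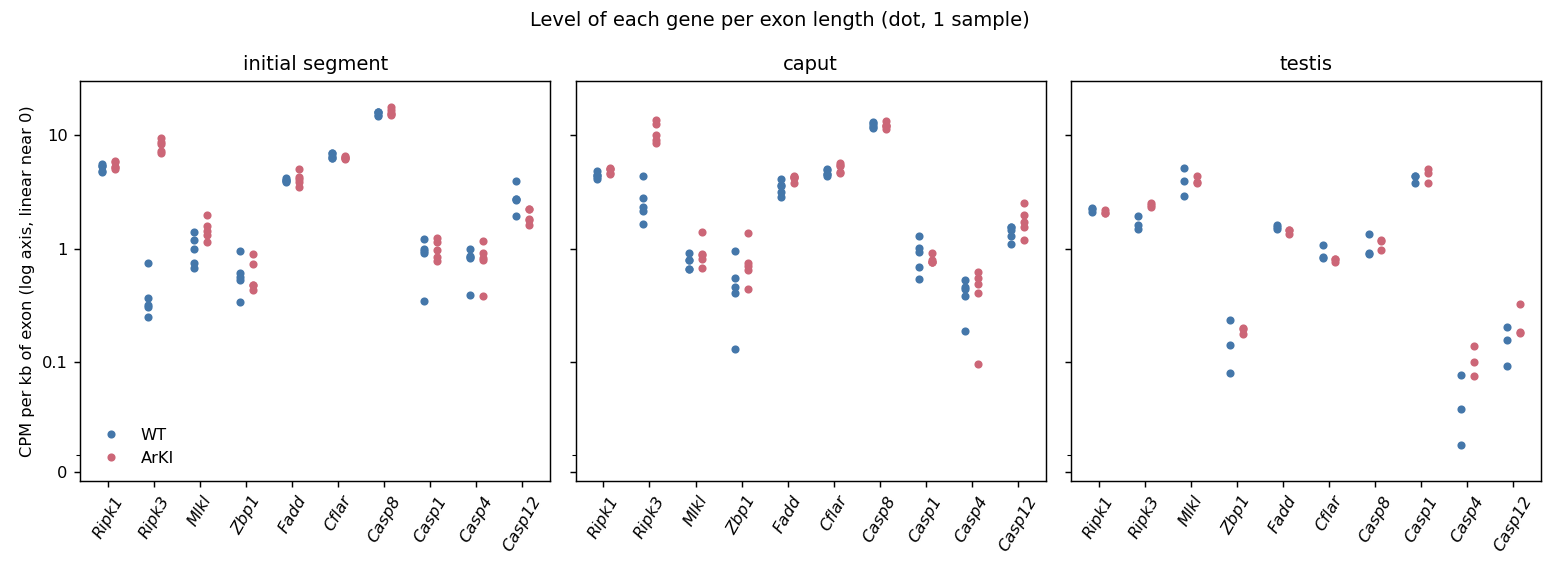
Level of each gene per length (CPM per kb of exon, log axis that is linear near 0) in the IS, caput and testis. Each dot is 1 sample, WT in blue and ArKI in red. *Ripk3* is last of the 10 in the WT IS (mean 0.400) and second in the ArKI IS (mean 8.16), and *Casp8* leads in all 4 epididymal groups.

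Related genes were counted in 10 lists, with 137 genes in the count tables, around the members. In the IS 15 of 112 tested genes rose and 12 fell, with a median log2 fold change of -0.029 beside -0.00011 for all genes tested. In the caput 16 of 110 rose and 8 fell (median 0.068 beside 0.0017), and in the testis 3 of 108 rose and 0 fell (0.040 beside -0.0023). All genes tested rose in 15% and fell in 14.6% in the IS, 13.7% and 14% in the caput, and 1.64% and 0.328% in the testis.

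Upstream of the kinases, 2 of 8 tested genes of TNF-family receptors and ligands rose in the IS and 2 of 8 in the caput. In both segments they were the death receptor gene *Fas* and *Tnfrsf1b*, another receptor gene of the TNF family. The log2 fold change of *Fas* was 0.30 in the IS (SE 0.095, adjusted p = 0.0214) and 0.64 in the caput (SE 0.072, adjusted p = 4.40e-06). *Tnfrsf1b* had 0.24 (SE 0.059, adjusted p = 0.00510) and 1.00 (SE 0.11, adjusted p = 9.32e-06). Of the genes that act on the TNF receptor complex, 1 of 20 rose and 3 fell in the IS, and 2 of 21 rose and 2 fell in the caput. *Birc3*, a ubiquitin ligase of RIPK1 and a target of NF-kB, rose in both (0.33, SE 0.079, adjusted p = 0.00365 and 0.62, SE 0.067, adjusted p = 3.04e-06). *Xiap*, a related inhibitor of caspases, fell in the IS (-0.55, SE 0.081, adjusted p = 4.59e-05), as did *Mapkapk2* (-0.22, adjusted p = 0.00154), whose product phosphorylates RIPK1, and *Peli1* (-0.12, adjusted p = 0.0296). In the caput *Tnip1* (-0.30, adjusted p = 0.00177) and *Tbk1* (-0.16, adjusted p = 0.0316) fell and *Otulin*, listed in the tables as *Fam105b*, rose (0.21, adjusted p = 0.0409).

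Of the other RIP kinases and receptors or adaptors of RHIM signalling, 2 of 7 rose in the IS. They were the Toll-like receptors *Tlr4* (0.83, SE 0.15, adjusted p = 0.000312) and *Tlr3* (0.42, SE 0.090, adjusted p = 0.00148). In the caput the kinase gene *Ripk2* rose (0.39, SE 0.14, adjusted p = 0.0454) and in the testis *Ripk4* (0.59, SE 0.15, adjusted p = 0.0467). Of 8 genes that act with MLKL, after it or in membrane repair, 1 rose and 3 fell in the IS, and none passed in the caput, where all 8 were tested. The falls were those of *Itpk1*, an inositol phosphate kinase (-0.52, SE 0.062, adjusted p = 6.68e-06), and the flotillin genes *Flot2* (-0.32, adjusted p = 0.000496) and *Flot1* (-0.23, adjusted p = 0.00409), and the rise that of *Ninj1*, which ruptures the membranes of dying cells (0.41, SE 0.14, adjusted p = 0.0277).

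Among inflammasome sensors, 1 of 12 tested rose in the IS and 2 of 9 in the caput. *Nlrp10* rose in the IS (1.07, SE 0.30, adjusted p = 0.0101) and the caput (0.67, SE 0.17, adjusted p = 0.00788), and *Naip5*, a sensor of bacterial flagellin, in the caput (0.99, SE 0.24, adjusted p = 0.00444). Of 14 gasdermin and product genes, 5 were tested in the IS, where *Hmgb1* rose (0.45, SE 0.16, adjusted p = 0.0409), and 3 in the caput, where none passed. Of 17 genes of mitochondrial apoptosis, 5 rose in the IS, among them *Bcl2* (0.40, SE 0.069, adjusted p = 0.000217), which restrains apoptosis, and *Bad* (0.39, adjusted p = 0.000558) and *Bcl2l11* (0.31, adjusted p = 0.00533), which promote it, and *Casp6* (0.24, adjusted p = 0.0204). In the caput 4 rose, among them *Apaf1* (0.46, SE 0.094, adjusted p = 0.00130), *Bad* (0.31, adjusted p = 0.00487) and *Bcl2l1* (0.22, adjusted p = 0.0138), and *Pmaip1* fell (-0.69, SE 0.13, adjusted p = 0.000742).

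Interferon response genes moved in both directions in the IS, where 2 of 18 rose and 4 fell, and 3 of 20 rose in the caput. *Rsad2* fell in the IS (-1.30, SE 0.20, adjusted p = 4.65e-05), as did *Stat2* (-0.29, adjusted p = 0.000656), while *Ifih1* (0.35, adjusted p = 0.0229) and *Sting1* (0.32, adjusted p = 0.000592) rose. In the caput *Sting1* (0.48, adjusted p = 0.0142), *Irf9* (0.26, adjusted p = 0.00763) and *Irf7* (0.33, adjusted p = 0.0233) rose, and in the testis *Oasl2* (0.88, SE 0.15, adjusted p = 0.00111). Of 9 tested NF-kB targets, *Birc3* was the only one called in the IS, and *Birc3*, *Vcam1* (1.41, SE 0.18, adjusted p = 1.28e-05) and *Icam1* (0.35, adjusted p = 0.0328) rose in the caput. *Icam1* also rose in the testis (1.08, SE 0.22, adjusted p = 0.00583). Of 12 genes of endoplasmic reticulum stress, 2 fell in the IS and 5 in the caput and none rose. *Ern1*, a sensor of unfolded proteins, fell in both (-0.47, SE 0.094, adjusted p = 0.00277 and -0.36, SE 0.086, adjusted p = 0.00636), *Atf6* in the IS (-0.22, adjusted p = 0.00132), and *Hspa5* (-0.26, adjusted p = 0.00210), *Dnajb9* (-0.18, adjusted p = 0.0126) and *Sdf2l1* (-0.20, adjusted p = 0.0364) in the caput.

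**Figure D4:**
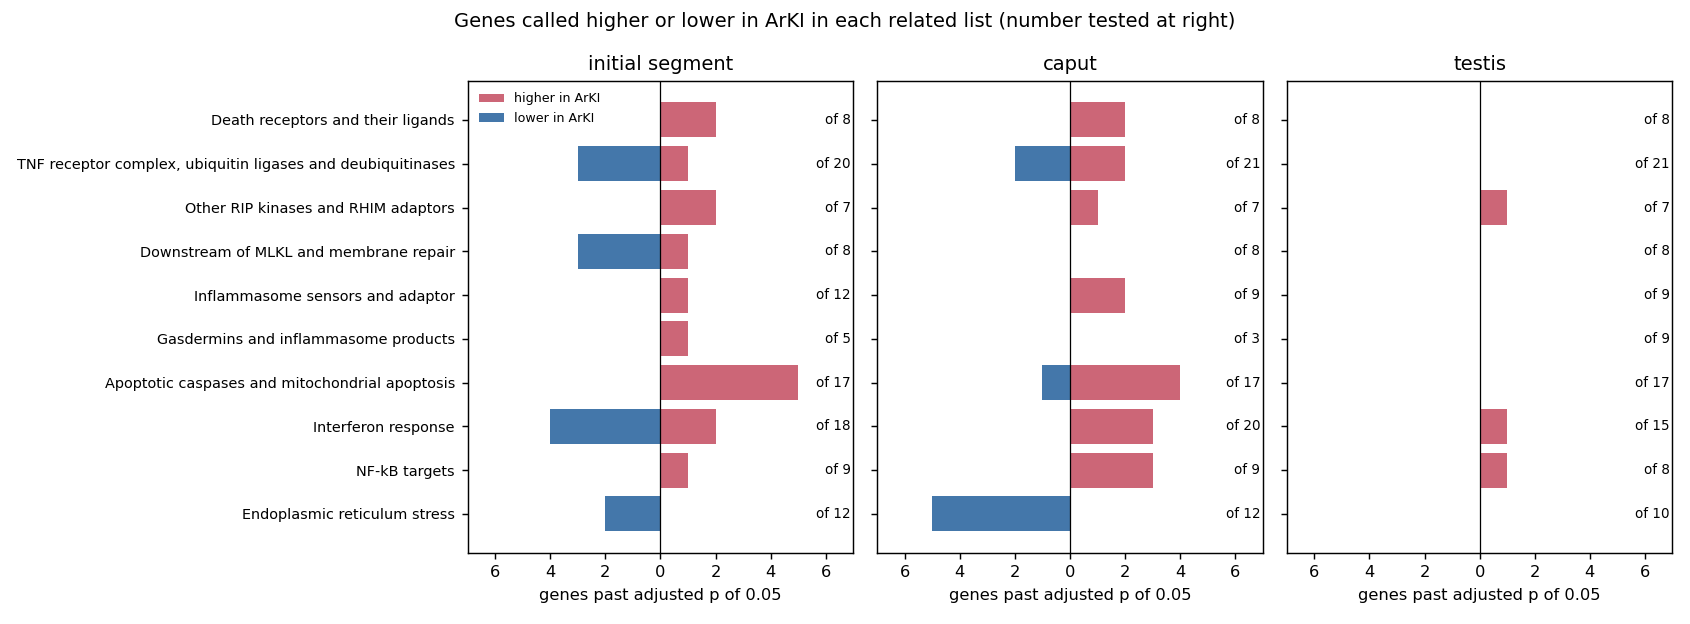
Number of genes of each related list past an adjusted p of 0.05 in the IS, caput and testis, higher in ArKI to the right of 0 (red) and lower to the left (blue), with the number tested at the right edge. Over the 10 lists 15 genes rose and 12 fell in the IS, 16 rose and 8 fell in the caput, and 3 rose in the testis.

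Marker mRNAs of other cell types and of the segments also differed between the genotypes. In the ArKI IS 3 of the 5 IS markers fell, *Cst8*, *Lcn9* and *Rnase10*, and every ArKI sum lay below every WT sum. None of the 3 passed with all epididymal samples in one fit (adjusted p = 0.561, 0.679 and 0.649). Of 4 caput markers, *Adam7* rose there (0.48, adjusted p = 7.48e-07) and *Crisp1* fell (-2.58, adjusted p = 5.78e-05). Like *Crisp1*, *Adam7* had a higher mean in the WT IS (15596 CPM) than in the WT caput (14350 CPM), so neither told the segments apart as a caput marker. In the ArKI caput 1 IS marker rose, *Ros1* (0.36, adjusted p = 0.000107). The other 4 had lower means than in WT and did not pass, with 36.7 against 154 CPM for *Cst8*, 126 against 481 for *Lcn9*, 317 against 724 for *Rnase10* and 87.0 against 116 for *Adam28*. Of the caput markers *Lcn5* fell there (-0.27, adjusted p = 0.0332), a call that held in 11 of 17 alternatives. In the ArKI IS all 4 smooth muscle markers (208 to 383 CPM summed, against 501 to 564 in WT), all 3 endothelial markers (61.0 to 72.2 against 87.5 to 105) and 3 of 4 basal cell markers fell. In the caput no smooth muscle or basal cell marker was called, and 2 of 3 endothelial markers rose, *Kdr* (0.91, adjusted p = 0.000183) and *Pecam1* (0.42, adjusted p = 0.00626), with sums of 42.2 to 65.6 against 35.2 to 38.2 CPM in WT. Of 15 markers of macrophages and other myeloid cells, 4 rose and 5 fell in the IS (576 to 857 against 433 to 588 CPM) and 5 rose and none fell in the caput (403 to 677 against 268 to 345 CPM). In the IS *H2-Ab1* rose (0.94, adjusted p = 0.00213). *Cx3cr1* (-0.68, adjusted p = 1.17e-05), *Csf1r* (-0.54, adjusted p = 0.000669) and *Itgam* (-0.49, adjusted p = 0.000928) fell there. Within the IS sum, *Cd74* had a mean of 198 against 105 CPM and *H2-Aa* 97.1 against 48.7 CPM. The higher IS sum thus does not stand for every marker of the list. In the testis 2 of 13 tested myeloid markers rose (127 to 141 against 87.5 to 107 CPM). Of 6 Leydig cell markers 2 rose there, *Cyp11a1* (0.92, adjusted p = 1.04e-06) and *Cyp17a1* (0.59, adjusted p = 4.27e-05), with sums of 851 to 928 against 550 to 704 CPM. The other 4 were not called and went both ways. *Hsd3b1* was lower in ArKI males (30.1 to 33.9 against 38.3 to 73.7 CPM), as was the mean of *Lhcgr* (4.91 against 5.86 CPM). The means of *Star* (123 against 97.2 CPM) and *Insl3* (29.2 against 28.6 CPM) were higher. Of the Sertoli cell list, *Sox9* rose in the IS (0.32, adjusted p = 0.00129) and the caput (0.74, adjusted p = 1.51e-07) and *Wt1* in the IS (1.31, adjusted p = 0.0133). *Rhox8* of that list was lower in the ArKI caput, at few counts (2 to 7 in WT and 0 to 1 in ArKI males). The Leydig genes *Cyp11a1* in the IS (0.77, adjusted p = 0.0319) and *Cyp17a1* in the caput (0.44, adjusted p = 0.00487) rose. *Cyp11a1* went the other way in the caput, where it was too low to be fitted (5 to 8 counts in WT and 0 to 2 in ArKI males), and its effect differed between the segments (-3.35, adjusted p = 0.000223). Sperm and spermatid markers fell in both segments, from 8.76 to 58.1 CPM in the WT IS to 1.26 to 4.26 CPM in the ArKI IS, and from 170 to 270 to 20.7 to 61.7 CPM in the caput. T cell markers summed to 4.09 to 7.83 CPM in the epididymis with none of the tested ones called, and of 5 neutrophil markers *Cxcr2* and *Mpo* were at 0 in all IS samples. The part of these cell types and segment markers in the values of *Ripk3*, *Casp12*, *Fadd* and *Vcam1* was not tested.

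Over the 20 epididymal samples, 5 genes had the pattern most like that of *Ripk3*, by Pearson's r of log2(CPM + 0.5) among 14030 genes with a mean of at least 1 CPM. They were *Epb4.1l3* (r = 0.977), *Emx2* (0.959), *Zfp937* (0.950), *Efemp1* (0.949) and *Spsb1* (0.940). The points share genotype, segment and library, and the values describe this likeness with no test. *Epb4.1l3*, which encodes a protein of the membrane skeleton, had mean levels of 12.2 CPM in the WT IS, 56.4 in the ArKI IS, 34.1 in the WT caput and 78.0 in the ArKI caput, so that its order of groups was the same as that of *Ripk3*. The r of the other members with *Ripk3* lay between -0.43 for *Casp12* and 0.27 for *Mlkl*.

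The genes beside *Ripk3* on chromosome 14 did not share its pattern. *Adcy4*, an adenylate cyclase gene 899 bases away, fell in the ArKI IS (4.94, 5.71, 5.21, 3.39 and 5.42 CPM in WT and 5.41, 1.97, 3.00, 2.73 and 2.72 CPM in ArKI males), with a log2 fold change of -0.64 (SE 0.23, adjusted p = 0.0455). In the caput it rose, with 1.40 to 2.26 CPM in WT and 2.55 to 4.38 CPM in ArKI males (0.83, SE 0.21, adjusted p = 0.00724). *Nfatc4*, on the other side, had a log2 fold change of 0.027 in the IS (SE 0.15, adjusted p = 0.923) and 0.38 in the caput (SE 0.19, adjusted p = 0.150). Next to *Fadd*, the chloride channel gene *Ano1* rose in both segments (0.54, SE 0.057, adjusted p = 6.84e-07 and 0.29, SE 0.063, adjusted p = 0.00210), and next to *Ripk1*, *Bphl* rose in the IS (0.21, SE 0.061, adjusted p = 0.0129) and *Serpinb6a* fell in the caput (-0.23, SE 0.069, adjusted p = 0.0174). The other neighbours, *Nqo2*, *Rfwd3*, *Fa2h*, *Pmepa1* and *Ppfia1*, did not pass the test in any of the 3 tissues.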

How the data were processed

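The authors aligned single-end reads to mm10 with STAR and counted reads per RefSeq gene with Subread (1.5.1 in the submitters' processing notes). The deposited values are raw counts for 23337 genes, without normalization. The labels and the paper name different Illumina library kits. The gene targeted by the knock-in is not reported here. The members and the related lists were chosen with earlier results of these data known.

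Counts were tested in edgeR 4.0.16 (R 4.3.3) with filterByExpr (minimum count 10, total 15), TMM scaling, a robust quasi-likelihood fit and Benjamini-Hochberg adjustment, per tissue, called at an adjusted p below 0.05. *Ripk3*, which was planned to be tested between the WT segments, is described there, since its epididymal values chose the members. The 95% intervals take the SE as normal. The fits were tested on simulated data. Genes were named by a rule: all members, up to the 4 lowest adjusted p per list and tissue, adjacent genes, and the 5 genes most like *Ripk3*. Alternatives were RLE or library-size scaling, a filter of 1 count, DESeq2 1.42.0, limma 3.58.1 voom, the study's thresholds, one epididymal fit, leaving out each replicate, and the replicate number as a block. Figures used matplotlib 3.10.9.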

Additional observations from a re-analysis of the deposited data

Results flagged for a closer look

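In 36 groups of 5 samples, those of the 9 genes other than *Ripk3*, 1 sample stood apart from the other 4 by Dixon's test at the 95% level in 2, and chance gives about 1 in 20, or 1.8 of 36. *Casp4* in WT IS replicate 5 was at 1.46 CPM, where the others had 3.11 to 3.72 CPM. *Casp1* in ArKI caput replicate 4 was at 1.36 CPM, where the others had 1.15 to 1.205 CPM, a gap of few counts. The groups of 3 testis samples were not tested.

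*Casp12* was picked out because its genotype effect differed between the segments, by 0.82 on the log2 scale, with the caput effect above the IS effect (adjusted p = 0.0277, edgeR's interaction test).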

How the results depend on the processing

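The IS count of 1 member (*Casp12*) was 0 at the study's thresholds, 2 with library size only or one epididymal fit, and 0 to 2 on leaving out a replicate. With limma voom the count was 1 too, but the gene was *Mlkl*. The caput count of 1 (*Fadd*) was 0 at the study's thresholds and with DESeq2, 2 with library size only, and 0 to 2 on leaving out a replicate. The second gene in the counts of 2 was *Ripk1*. The interaction count of 1 was 0 at the study's thresholds and with limma voom, and 0 to 1 on leaving out a replicate. The WT segment count of 5 was 0 at the study's thresholds, and 5 to 6 on leaving out a replicate. The testis count was 0 throughout, with DESeq2 and limma voom too, and *Ripk3* was the one fitted member with an unadjusted p below 0.05 (0.0031). The cause of these differences was not tested.

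Among 868 recomputed log2 fold changes, 794 kept direction and side of the threshold and 46, of 12 values none of which passed the test, changed sign. *Casp8* in the caput was 0.034 with library size only, 0.0039 with the filter of 1 count and 0.0053 with limma voom, and *Casp4* there was -0.024 with limma voom. *Mlkl* in the testis was 0.014 with library size only, 0.0020 with the filter of 1 count, 0.0026 with DESeq2 and 0.030 with limma voom, and the *Casp4* interaction was -0.10 with limma voom. Leaving out 1 replicate gave -0.14 to 0.26 for *Zbp1*, -0.031 to 0.10 for *Fadd*, -0.049 to 0.31 for *Casp1* and -0.11 to 0.25 for *Casp4* in the IS. It gave -0.032 to 0.024 for *Casp8*, -0.27 to 0.024 for *Casp1* and -0.087 to 0.33 for *Casp4* in the caput, and -0.18 to 0.23 for *Mlkl*, -0.014 to 0.77 for *Zbp1* and -0.030 to 0.31 for *Casp8* in the testis. It gave -0.17 to 0.24 for the *Casp4* interaction and -0.19 to 0.17 for *Casp1* between WT segments.

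Some list and marker genes named above missed the threshold in part of the 17 alternatives (12 in the testis). In the IS they passed in 16 for *Cst8*, *Lcn9* and *Rnase10*, 15 for *Casp6*, 14 for *Ifih1*, 13 for *Fas*, 12 for *Cyp11a1*, 11 for *Ninj1* and *Peli1* and 10 for *Hmgb1*, in the caput in 14 for *Irf7*, 11 for *Lcn5*, 10 for *Icam1* and *Tbk1*, 8 for *Otulin*, 7 for *Ripk2* and 6 for *Sdf2l1*, and in the testis in 11 for *Icam1* and 4 for *Ripk4*.

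With the replicate number as a block the counts were 1 in the IS, 1 in the caput, 0 in the testis, 1 for the interaction and 5 between WT segments, as without it, and *Mlkl* in the testis was 0.025. Samples with the same number did not deviate together in every pair (lowest correlation -0.15 in the IS, -0.29 in the caput and -0.076 in the testis). Between the WT IS and the WT caput all 5 same-number correlations were above 0 (0.023 to 0.21, mean 0.11, against -0.028 for other numbers), with 3 of 5 samples closest to their own number, and between the ArKI IS and caput they were -0.13 to 0.23. Not every pair reached 0.1, so the numbers were not taken as pairs.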
